A study of Schizosaccharomyces pombe with 3 samples.

Results

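The genome of the fission yeast Schizosaccharomyces pombe was searched for the intergenic DNA most strongly recovered with the corepressor Tup12. An intergenic feature is a spotted piece of DNA that the array names for a gene with the prefix for intergenic regions, and features named for long intergenic regions were not counted among them. Strongly bound features were those whose log2 ratio of immunoprecipitate over input, centred on the median of the array, was above 0 on each of 3 arrays and averaged at least 1.5. There were 370 such features among 2109 intergenic features with a value on all 3 arrays (17.5%), of 4993 on the array. These ratios chose the features, so the ratios are given below as a description with no test, and no feature met the mean while lying at or below 0 on an array. All arrays are of a single group, a strain carrying Tup12-GFP taken during logarithmic growth in YES, a rich medium, with chromatin precipitated by a polyclonal antibody against GFP, labelled with Cy5 and hybridised beside Cy3-labelled input of the same strain. No array of an untagged strain, of another growth condition or with the dyes exchanged was analysed here, so binding that depends on the tag cannot be told apart from other recovery of DNA. The labels describe separate experiments without saying whether the cultures were separate, so errors, which are SDs over n = 3 arrays throughout, may be technical.

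Tup12 and its relative Tup11 belong to the Tup1 family of corepressors, which act with Ssn6. Proteins of this family do not read DNA sequence themselves and are brought to promoters by DNA-binding repressors, where they act on nucleosomes and histone acetylation. In fission yeast they are known for keeping iron uptake genes low when iron is plentiful, through the GATA-type repressor Fep1, and for glucose repression of genes such as fbp1. Feature names were read as the region upstream of the named gene. The sources used here do not spell this out, and the measured values bear on it: over 287 pairs of divergent neighbours, whose upstream regions are the same DNA, the means of the paired features correlated at r = 0.65, against r = 0.21 over 226 convergent pairs and r = 0.25 over 388 tandem pairs. These correlations are across genes and describe the 3 arrays they share.

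The DNA before the genes of the highest features is shown first, because later results refer to it. No source used here gives the ends of the spotted pieces, so each line holds the 250 bases before the annotated start of the gene in RefSeq's ASM294v3 assembly, read 5′ to 3′ on the strand of the gene, and the spotted piece can extend beyond it. Capitals mark matches, on either strand, to 5 kinds of motif. One group was made of GATA forms. It held AGATAA and the variant of it that ends in T, which is AGATAT, and it also held TGATAA and the matching variant that ends in T, namely TGATAT. The cyclic AMP response element core was searched as TGACGT, the box read by CCAAT-binding factors by that name, and the stress element of zinc finger activators as CCCCT. Finally CCCCAC was searched, which zinc finger repressors of carbon genes can read. A match is a run of letters and not a measured site. The windows of the 3 highest features lie at chrI:1823722-1823971 (plus strand), chrIII:1919032-1919281 (plus strand) and chrI:3920757-3921006 (plus strand).
SPAC1002.20: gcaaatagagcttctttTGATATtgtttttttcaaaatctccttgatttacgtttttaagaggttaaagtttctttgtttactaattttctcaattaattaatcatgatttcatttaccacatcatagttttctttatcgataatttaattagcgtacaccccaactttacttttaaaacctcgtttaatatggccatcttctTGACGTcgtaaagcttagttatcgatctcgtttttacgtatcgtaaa
mug24: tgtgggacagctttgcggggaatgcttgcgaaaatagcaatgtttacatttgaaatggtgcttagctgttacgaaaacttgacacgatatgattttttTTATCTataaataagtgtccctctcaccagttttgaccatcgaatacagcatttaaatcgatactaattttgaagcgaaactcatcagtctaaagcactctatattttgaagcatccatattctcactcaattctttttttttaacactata
rmp1: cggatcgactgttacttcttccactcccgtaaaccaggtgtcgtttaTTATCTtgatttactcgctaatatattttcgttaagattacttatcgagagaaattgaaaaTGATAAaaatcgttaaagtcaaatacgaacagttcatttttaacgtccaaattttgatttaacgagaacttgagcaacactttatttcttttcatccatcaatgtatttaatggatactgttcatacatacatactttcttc
The SPAC1002.20 window held 1 GATA form and 1 TGACGT, the mug24 window 1 GATA form and the rmp1 window 2 GATA forms.

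The highest features of 3 gene groups follow. They lie before fip1, the iron permease gene, at chrI:4234769-4235018 (minus strand); before pgk1, the phosphoglycerate kinase gene, at chrII:4159462-4159711 (minus strand); and before gto1, annotated as an alpha-glucosidase gene, at chrI:5474946-5475195 (minus strand).
fip1: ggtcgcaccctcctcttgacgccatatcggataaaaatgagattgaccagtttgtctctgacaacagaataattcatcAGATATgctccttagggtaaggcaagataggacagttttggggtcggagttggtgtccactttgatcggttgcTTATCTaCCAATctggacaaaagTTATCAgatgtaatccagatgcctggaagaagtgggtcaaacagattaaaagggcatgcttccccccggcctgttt
pgk1: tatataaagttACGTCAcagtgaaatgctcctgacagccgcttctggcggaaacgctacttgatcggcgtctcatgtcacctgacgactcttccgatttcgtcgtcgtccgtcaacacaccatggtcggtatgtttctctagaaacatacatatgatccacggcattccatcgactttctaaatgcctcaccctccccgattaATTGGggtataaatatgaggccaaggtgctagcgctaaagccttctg
gto1: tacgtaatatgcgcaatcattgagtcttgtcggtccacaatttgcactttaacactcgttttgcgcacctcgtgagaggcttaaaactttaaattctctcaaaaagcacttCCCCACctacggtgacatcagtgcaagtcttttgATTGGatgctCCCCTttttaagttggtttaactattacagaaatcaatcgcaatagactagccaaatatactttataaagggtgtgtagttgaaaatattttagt
The fip1 window held 4 matches, 3 of them GATA forms. The pgk1 window held 2 matches and the gto1 window 3, among them both a CCCCAC and a CCCCT. The GC content was 45.6% in the fip1 window, 48.0% in the pgk1 window and 37.6% in the gto1 window.

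Last are the highest features of the stress response and of mating and meiosis, before gpd1, which makes glycerol 3-phosphate in osmotic stress, at chrII:4035316-4035565 (plus strand), and before mei3, whose product inactivates the Pat1 kinase to start meiosis, at chrII:719469-719718 (plus strand).
gpd1: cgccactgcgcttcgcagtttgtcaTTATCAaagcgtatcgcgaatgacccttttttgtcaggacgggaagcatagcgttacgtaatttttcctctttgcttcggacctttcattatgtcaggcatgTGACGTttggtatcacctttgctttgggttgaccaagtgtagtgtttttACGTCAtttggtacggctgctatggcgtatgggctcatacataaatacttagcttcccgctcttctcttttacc
mei3: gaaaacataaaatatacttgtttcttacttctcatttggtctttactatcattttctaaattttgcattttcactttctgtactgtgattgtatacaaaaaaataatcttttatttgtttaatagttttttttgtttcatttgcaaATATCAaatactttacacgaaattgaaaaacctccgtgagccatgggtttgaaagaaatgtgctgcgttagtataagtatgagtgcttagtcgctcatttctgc
The gpd1 window held 3 matches, 2 of them TGACGT read from either strand, and the mei3 window held 1 GATA form.

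The strongly bound features spread over a wide range of values with no break at the limit. Their means had a median of 2.00 and reached 4.45, and 183 features averaged at least 2, 54 at least 3 and 6 at least 4 on the log2 scale. The other 1739 intergenic features had a median of 0.34. On single arrays the median of the strongly bound features was 1.89, 2.21 and 2.13 on replicates 1, 2 and 3, and that of the other features was 0.34, 0.40 and 0.26. The 3 features just inside the limit were those of SPCC777.06c (1.504), the piece pB10D8_448065_1 (1.505) and utp21 (1.506), and those just outside were named for SPBPB2B2.03c (1.499), a tRNA-Ala gene (1.499) and SPCC1919.04 (1.497). Replicates differed for single features: 244 features reached 1.5 on all 3 arrays, 83 on 2 arrays and 43 on 1 array.

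The highest feature lay before SPAC1002.20, an uncharacterised gene that is divergent from the cell wall gene psu1. Its centred log2 ratio was 4.13, 4.41 and 4.82 on replicates 1, 2 and 3 (4.45 ± 0.35). The mug24 feature, beside a gene for an RNA-binding protein induced in meiosis, gave 3.99, 4.66 and 3.97 (4.21 ± 0.39). Before rmp1, which encodes a subunit of ribonuclease MRP, the values were 3.88, 4.49 and 4.05 (4.14 ± 0.31). All 3 features lay above 3.8 on every array, over 2 log2 units past the limit. Next came fip1 (3.83, 4.70 and 3.84), the heme uptake gene shu1 (4.13, 4.40 and 3.56), gto1 (4.10, 4.33 and 3.63), and fio1, the multicopper oxidase partner of the iron permease (4.12, 3.35 and 4.52). The feature named ef1-b, a name that was not found in the reference annotation, had nearly the same value on all arrays (3.88, 4.03 and 3.98). The highest 12 were completed by pgk1 (3.87, 3.77 and 4.20), the vitamin B6 transporter gene SPCC576.17c (3.17, 4.59 and 3.76), the PHD finger gene phf1 (3.38, 4.23 and 3.83) and the alcohol dehydrogenase gene adh1 (3.83, 3.62 and 3.97). The order of these 12 is not settled by the data, since neighbours in it differ by less than their SDs over arrays. On chromosome II the highest feature was that of pgk1.

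**Figure D1:**
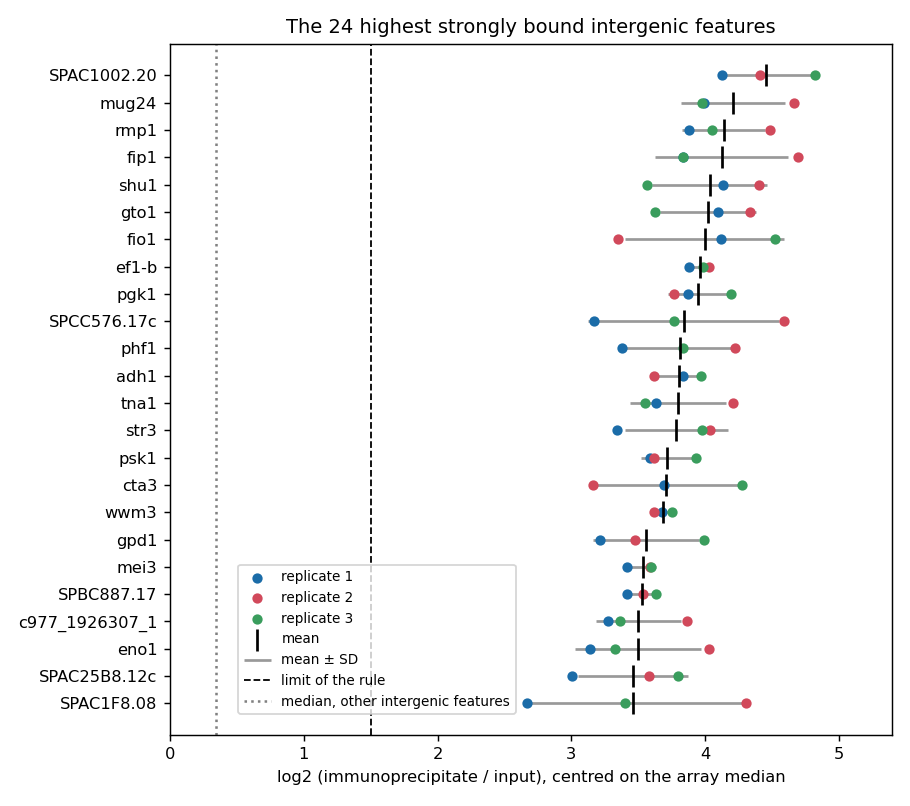
Centred log2 ratio of immunoprecipitate over input of the 24 strongly bound features with the highest means; points are the 3 arrays, black ticks the means and grey bars the SD, with the limit of 1.5 dashed and the median of the other intergenic features (0.34) dotted. Every point of these 24 features lies to the right of the limit, and the SPAC1F8.08 and SPCC576.17c features spread the most among them.

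Most strongly bound features agreed between arrays about as well as other features, with exceptions. The median SD over arrays was 0.34 for the strongly bound features and 0.40 for the other intergenic features, 120 strongly bound features had an SD under 0.25, and 5 had an SD over 1. The widest was the feature of cbp8, at 5.77, 0.19 and 1.06 on replicates 1, 2 and 3, so that its mean of 2.34 rests on replicate 1. The feature of rib2 (0.69, 0.82 and 3.05) and that of rpn12, a proteasome subunit gene (0.79, 1.35 and 3.08), were carried by replicate 3, and the cnt5 feature (4.17, 2.07 and 1.86) was highest on replicate 1. At the other end, the feature of the histone H4 gene hhf2 gave 1.54, 1.56 and 1.58, and that of the triosephosphate isomerase gene tpi1 gave 1.61, 1.55 and 1.56. Replicate 2 gave the highest of the 3 values for 193 features, replicate 3 for 133 and replicate 1 for 44.

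By median, the high ratios came with a bright immunoprecipitate and a somewhat dim input. The median spot intensity of the strongly bound features in the immunoprecipitate channel was 3332, 3362 and 3860 on replicates 1, 2 and 3, and that of other intergenic features 1104, 1063 and 1270, a difference of 1.59, 1.66 and 1.60 on the log2 scale. In the input channel the medians were 561, 848 and 696 for the strongly bound features and 690, 1128 and 970 for the others, a difference of -0.30, -0.41 and -0.48. Of the 370 features, 142, 146 and 165 had an input below the 25th percentile of measured intergenic features on the 3 arrays, and 143, 145 and 146 had an immunoprecipitate above the 90th percentile. Negative control spots that passed the flags had a median immunoprecipitate intensity of 911, 968 and 1198, close to that of the other intergenic features. Not every strongly bound feature was bright. On replicates 1, 2 and 3, 0, 7 and 1 of them had an immunoprecipitate below their own local background. The sld3 feature (mean 2.62), picked after its values were seen, had an immunoprecipitate of 1839, 1620.5 and 1828.5. These lie under the 95th percentile of accepted negative control spots (1956, 1852 and 2239), and its input was 171, 387 and 260. Saturation was rare, with at most 7 strongly bound features on an array. Leaving out spots whose input lay below the 25th percentile of all spots left 212 features past the limit, 147 of them among the 370. In that setting 4135 features had a value on all arrays, in place of 5460, and centred values moved up by medians of 0.27, 0.38 and 0.33. How much of a ratio comes from a dim input was not tested.

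An array that took no part in the choice gives values the rule did not use. When features were chosen in the same way on 2 arrays, all 391 with a value on replicate 1 were above 0 there, with a median of 1.85, and 288 of them (73.7%) reached 1.5. On replicate 2, 363 of 364 were above 0, with a median of 2.17, and 278 (76.4%) reached 1.5. On replicate 3, all 373 were above 0, with a median of 2.04, and 282 (75.6%) reached 1.5. Among all intergenic features with a value on the same array, 76.7%, 77.7% and 73.1% were above 0 and 15.7%, 21.0% and 18.9% reached 1.5. With a single array left out each time there is no test of this difference. Across the 370 features themselves the values of replicates 1 and 2, 1 and 3, and 2 and 3 correlated at r = 0.68, 0.72 and 0.64, which describes features already cut at a common limit.

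**Figure D2:**
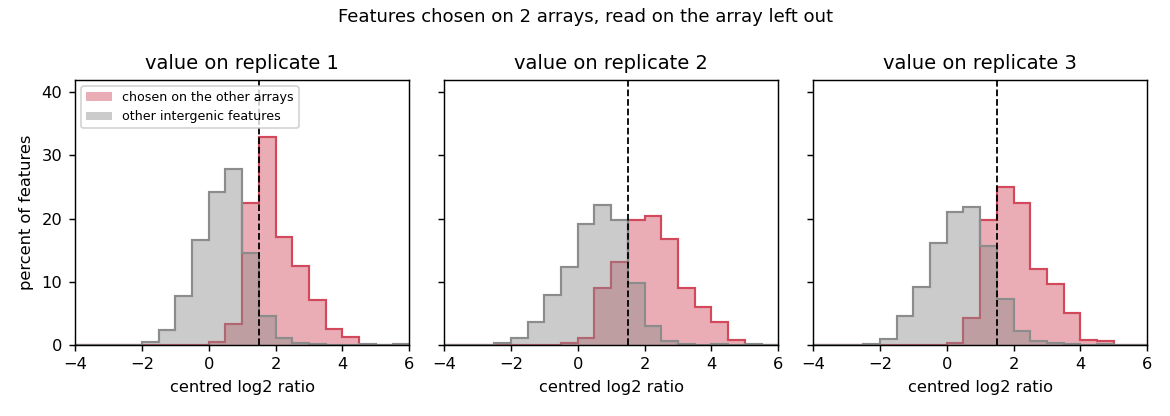
Centred log2 ratio on the array left out (x axis), as the percent of features in bins of 0.5 (y axis), for intergenic features chosen on the other arrays (red) and for other intergenic features (grey), with one panel for each array left out and the limit of 1.5 dashed. The medians of the chosen features on the array left out were 1.85, 2.17 and 2.04.

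In the whole-table fit with limma (mean against 0, Benjamini-Hochberg adjustment over 5460 features), 22.1% of all features and 43.7% of intergenic features were called higher at an adjusted p under 0.05. All 370 strongly bound features were called, with adjusted p of at most 9.8e-04. The rule used the same contrast, so nothing is read from this count.

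Strongly bound features often lay in a region shared by a pair of genes, and so did other intergenic features. The named gene could be placed on the reference for 344 features, of which 342 had an upstream neighbour among protein-coding genes, and these lay in 307 separate regions. In 217 of the 342 (63.5%) the upstream neighbour was divergent, so that the region holds the start of both genes, against 55.6% of the 1626 other intergenic features that could be placed. Of 287 divergent pairs with both features measured, 35 had both strongly bound, 64 had 1 and 188 had none. The pair with the highest mean over both features was fip1 and fio1, at 4.12 ± 0.50 and 4.0 ± 0.60. It was followed by phf1 and psk1, which encodes an S6 kinase family protein (3.81 ± 0.42 and 3.71 ± 0.19), and by rmp1 and the MatE-family transporter gene SPAC323.07c (4.14 ± 0.31 and 3.29 ± 0.12). In pairs with both bound, the median difference between the features was 0.51, of the order of the SD over arrays.

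Where only 1 feature of a divergent pair passed the limit, its partner tended to lie above the other intergenic features. The partners had a median of 0.81, against 0.34 for all intergenic features that were not strongly bound, and 56 of the 64 partners were above 0 and 8 below. The mug24 feature averaged 4.21 ± 0.39 while that of its partner hmt1, a vacuolar metal tolerance transporter, gave 1.23, 1.85 and 1.11 (1.4 ± 0.40, limma adjusted p = 2.1e-04), just under the limit. The largest gap, singled out after the values were seen, was 3.19 between abc3, a vacuolar ABC transporter gene under iron control (2.92 ± 0.14), and the adhesin gene pfl7 (-0.27 ± 0.37). Their coding sequences lie 3418 bp apart, so the 2 pieces need not overlap.

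**Figure D3:**
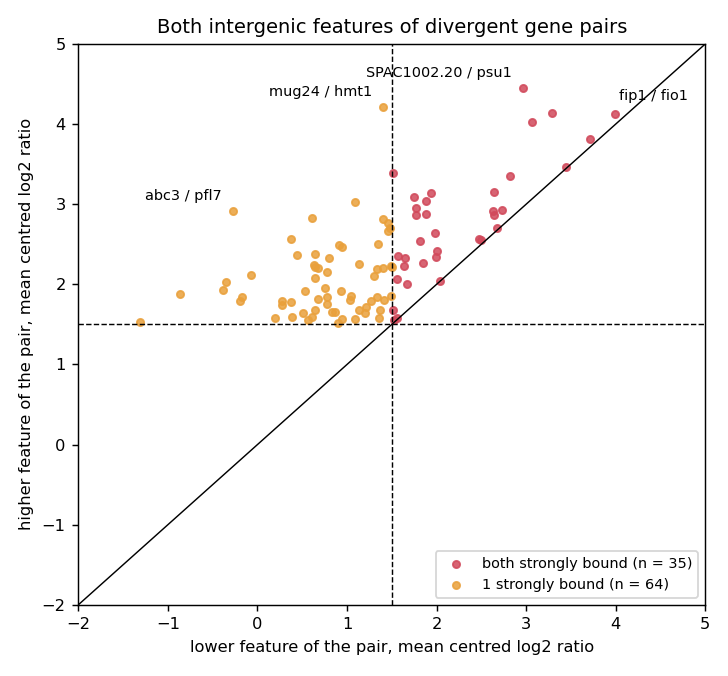
Mean centred log2 ratio of the higher feature (y axis) against the lower feature (x axis) of 99 divergent gene pairs in which both features were measured and at least 1 was strongly bound; dashed lines mark the limit of 1.5 and the solid line equal values. The 35 pairs with both bound (red) include fip1 and fio1 near the line of equal values, and abc3 and pfl7 lie farthest from it.

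Separate pieces placed in the same divergent region could differ. For 26 strongly bound features the array also had a measured long-region feature named for a gene of the same divergent region. Long features were placed by this name alone, and the placement was not checked. Some pairs shared one, so these were 21 distinct long features, of which 3 reached 1.5. Limma called 7 of the 21 higher and 1 lower. Over all features, most of them ORF and plain intergenic ones, 22.1% were called higher. Called lower were 155 of 2109 intergenic features without long ones and 1249 of 3221 ORF features. Shares over long features alone were not worked out. In the region of wwm3 and fbp1, the glucose-repressed fructose-1,6-bisphosphatase gene, the wwm3 feature gave 3.67, 3.62 and 3.76 (3.68 ± 0.07). The long feature named for fbp1 in the same 3393 bp between the coding sequences gave 0.09, -0.43 and 0.0057 (-0.11 ± 0.28, limma adjusted p = 0.76), and the fbp1 reading frame itself averaged 0.41 ± 0.23 (limma adjusted p = 0.22). The plain fbp1 feature had no value on any array, so where in this stretch the high value lies was not measured. Between the cyclin gene clg1 and scr1, the gene of a glucose repressor, 6162 bp apart, the clg1 feature averaged 3.28 ± 0.41 and the long feature 0.77 ± 0.30 (limma adjusted p = 0.024). By contrast, the long feature named for SPAC1F8.08 averaged 2.98 ± 0.21. This was close to 3.46 ± 0.82 for the SPAC1F8.08 feature and 3.44 ± 0.32 for that of the pyruvate decarboxylase gene pdc101. The coding sequences of these genes lie 396 bp apart, and where the ends of the long piece lie is not known.

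The strongly bound features lay in longer intergenic regions by median, a difference that was not tested. The median distance between the coding sequences on either side was 1246 bp for the strongly bound features and 888 bp for the others, and 7.51% of features were strongly bound where this distance was at most 521 bp, and 13.0%, 23.0% and 26.0% in the 3 groups of equal size above it, in rising order of distance. The difference was present for tandem neighbours (1262 against 767.5 bp) and for divergent ones (1238 against 1016.5 bp). Shares by chromosome were 16.2% of 927 measured features on chromosome I, 19.2% of 636 on II and 17.2% of 419 on III, and 24 of 85 features (28.2%) within 100 kb of a chromosome end were strongly bound. These are shares of features, and neighbouring features share DNA fragments.

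Some strongly bound features were neighbours along the chromosome. When unmeasured genes were passed over, 84 strongly bound features lay in 23 runs of at least 3 neighbours. Divergent partners, which can report the same DNA, were counted separately in these runs. How many runs the share of strongly bound features alone would give was not worked out. The longest run had 8 features on chromosome I: ssd1 (1.56), psu1 (2.96), SPAC1002.20 (4.45), the nicotinic acid transporter gene tna1 (3.80), urg2 (3.14), urg3 (1.94), toe1 (1.59) and uck2 (1.95). Values on both sides of the SPAC1002.20 feature had to be lower, because it is the highest of all strongly bound features. A run of 6 on chromosome I joined the hexose transporter gene ght3 (1.72), shu1 (4.03), the siderophore transporter gene str3 (3.78), hhy1 (3.19), pdc101 (3.44) and SPAC1F8.08 (3.46). Its measured features thus included iron, sugar and fermentation genes. On chromosome II, 4 features at the galactose genes formed a run: SPBPB2B2.06c (2.57), gal7 (2.91), tgd1 (2.63) and gal10 (3.13).

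Many of the reading frames behind these regions lay above the array median as well, at lower values. The values of single open reading frame (ORF) features did not enter the choice of the members, although ORF spots take part in the array median on which all values were centred. Of 254 member genes with an ORF feature measured on all arrays, 97 (38.2%) were called higher and 36 (14.2%) lower by limma at an adjusted p under 0.05, where 8.2% of all 3221 ORF features were called higher and 38.8% lower. The other 2967 ORF features were called higher in 5.63% of cases and lower in 40.9%. The median ORF value of the member genes was 0.29, 0.26 and 0.38 on replicates 1, 2 and 3, and that of other ORF features -0.45, -0.68 and -0.45. On an array left out of the choice of the members the ORF medians were 0.19, 0.25 and 0.33, against -0.46, -0.68 and -0.46 for other ORFs, an alternative added after the data were seen. The level of this median depended on the setting. Without replicate 1 the members chosen on the other arrays, with 314 ORF features, had an ORF median of 0.0077 against -0.52 for other ORFs. With rejected spots kept at a floor, where 130 of the chosen features were among the 370, it was -0.29 against -0.70.

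Within a gene the intergenic feature exceeded the ORF feature in all but 14 of the 254 genes, with a median difference of 1.92 on the log2 scale, which the choice by the intergenic value favours. The highest ORF features of member genes were prt2, annotated as a regulatory long noncoding RNA beside the phosphate transporter gene pho84 (3.93, 4.51 and 4.05), and mug114 (4.14, 3.5 and 4.51). They were followed by fip1 (3.70, 3.69 and 3.53), SPAC1F8.08 (3.09, 3.67 and 3.84) and SPAC683.03 (2.61, 4.08 and 2.83). The lowest were the ribosomal protein gene rps3001 (-2.19 ± 0.55), ucp7 (-1.75 ± 0.44) and rpn12 (-1.69 ± 0.40). ORFs of upstream neighbours were called higher in 35 of 152 cases for divergent neighbours (23.0%, median -0.17) and in 36 of 84 for tandem neighbours (42.9%, median 0.37). They were called lower in 34 (22.4%) and 12 (14.3%) of these cases. Over all ORF features, 8.2% were called higher and 38.8% lower. No source used here gives the length of the chromatin fragments, and whether the ORF values come from fragments that also hold intergenic DNA was not tested.

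**Figure D4:**
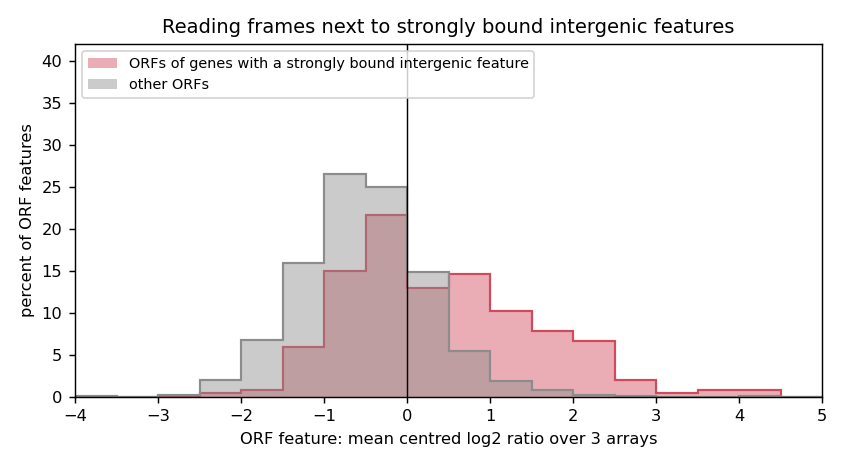
Mean centred log2 ratio of ORF features over 3 arrays (x axis), as the percent of features in bins of 0.5 (y axis), for the 254 ORFs of genes named by a strongly bound intergenic feature (red) and the 2967 other ORFs (grey). The red distribution extends past 2, where few of the other ORFs lie.

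Iron uptake genes were bound almost throughout. Of 11 measured features of the iron uptake list, 10 were strongly bound, against 17.5% of all measured intergenic features. The median of the list was 3.35 against 0.54. Divergent pairs within the list, fip1 with fio1 and sib1 with sib2, share a region, so the 10 features are not all separate regions. The list covers reductive uptake (fip1 and fio1, and the reductase gene frp1 at 3.36 ± 0.44), heme uptake (shu1), the siderophore transporters str3 (3.78 ± 0.39), str2 (3.35 ± 0.37) and str1 (2.09 ± 0.54), and siderophore synthesis, with sib1 (2.64 ± 0.25) and sib2 (1.98 ± 0.57). The exception was sib3, at -0.20, 0.84 and -0.32 (0.11 ± 0.64). Its arrays lay on both sides of 0. Of 9 ORF features of these genes, 5 were called higher by limma, where 8.2% of all ORF features were. Of 7 features of genes that regulate or use iron, 1 was strongly bound, that of abc3. The median of these 7 was 0.90, and 4 were called higher by limma, where 43.7% of intergenic features were. The vacuolar iron transporter gene pcl1 (1.48 ± 0.62) and the glutaredoxin gene grx4 (1.17 ± 0.34) lay nearest the limit. The feature of php4, a regulator of iron use, averaged 0.34 ± 0.21, that of the repressor gene fep1 -0.09 ± 0.62, and isa1 was lowest (-0.16 ± 0.47).

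Genes of glycolysis and fermentation, which are active in glucose medium, were strongly bound in most cases too. All 9 measured glycolytic features were strongly bound, with a median of 2.54. After pgk1 came the glyceraldehyde-3-phosphate dehydrogenase gene gpd3 (3.24 ± 0.28), the phosphoglycerate mutase gene gpm1 (3.02 ± 0.40) and the hexokinase gene hxk2 (2.56 ± 0.61), and tpi1 was lowest (1.57 ± 0.03). Of 8 ORF features of the list, 4 were called higher and 1 lower, where 8.2% of all ORF features were called higher and 38.8% lower. In fermentation 3 of 4 were strongly bound: adh1 (3.81 ± 0.18), pdc101 (3.44 ± 0.32) and adh4 (2.22 ± 0.17), while pdc201 gave 0.42, -0.33 and 1.29. Hexose transporter genes were mixed, with ght6 (2.70 ± 0.31), ght3 (1.72 ± 0.26) and ght5 (1.57 ± 0.35) past the limit and gti1, a regulator of gluconate transport, at 0.26 ± 0.28.

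Among genes for other carbon sources 6 of 9 were strongly bound, with a median of 2.74. These were gto1 (4.02 ± 0.36), the galactose genes gal10 (3.13 ± 0.24) and gal7 (2.91 ± 0.62), icl1 (2.87 ± 0.35), the malic enzyme gene mae2 (2.74 ± 0.49) and agl1 (1.81 ± 0.19). The lowest was gut2, at -0.30 ± 0.34. Of 7 ORF features of these genes 1 was called higher, where 8.2% of all ORF features were. In the glucose-sensing pathway a single feature of 10 was strongly bound, that of the zinc finger gene rsv2 (2.56 ± 0.21), and the G protein subunit gene git5 was lowest (-0.17 ± 0.16).

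Stress and nutrient genes were bound in part. In the stress response list 6 of 15 features were strongly bound, with a median of 1.45: gpd1 (3.56 ± 0.40), the Hsp70 gene ssa1 (2.86 ± 0.09), the response regulator gene prr1 (2.77 ± 0.53), the peroxiredoxin gene tpx1 (2.57 ± 0.38), and also srx1 and sty1. The catalase gene ctt1 lay just under the limit with close replicates (1.54, 1.5 and 1.39), and the transcription factor gene pcr1 was lowest (-0.0081 ± 0.23). Of 6 phosphate features 4 were strongly bound, namely pho84 (3.31 ± 0.77), prt2 (3.02 ± 0.58), the regulator gene pho7 (1.81 ± 0.33) and the acid phosphatase gene pho1 (1.61 ± 0.32), while tgp1 was lowest (-0.20 ± 0.61). The prt2 RNA is annotated beside pho84, so these 2 phosphate features may not be separate regions. Zinc and copper genes had 0 of 7 strongly bound, and their median was -0.09. Of these 7 features 2 were called higher by limma, where 43.7% of intergenic features were. In this list hmt1 shares its divergent region with mug24, whose feature was strongly bound (4.21 ± 0.39). The loz1 feature (0.61 ± 0.09) also had a strongly bound divergent partner, that of SPAC683.03 (2.83 ± 0.33). Both pairs were picked after their values were seen. Of 5 cation pump features only that of cta3, a P-type ATPase gene, was strongly bound (3.69, 3.16 and 4.28), and the potassium transporter gene trk1 was lowest (-1.05 ± 0.15).

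Developmental and housekeeping groups varied in the share of strongly bound features, which was 17.5% over all measured intergenic features. Of 9 mating and meiosis features 3 were strongly bound, mei3 (3.41, 3.59 and 3.6), the P-factor pheromone gene map2 (2.84 ± 0.34) and spo5 (1.56 ± 0.18), and mfr1 was lowest (-0.64 ± 0.62). Features of genes with mug symbols, given for upregulation in meiosis, were strongly bound in 11 of 33 cases. They were led by mug24, mug153 (3.38 ± 0.23) and mug14 (3.17 ± 0.39). Some lie in divergent regions shared with genes of other lists, as mug114 with hxk2, mug124 with fba1 and mug146 with ght6. Such regions are counted in both lists. Of 8 histone features 4 were strongly bound. They stood near the limit, at 1.52 to 1.58, and belonged to the H3 and H4 genes hht2, hhf2, hht3 and hhf3. The hht2 and hhf2 genes are divergent and share a region, as do hht3 and hhf3. Cell wall genes had 3 of 13, led by psu1 (2.96 ± 0.32), and the S-phase list had 1 of 4, the ribonucleotide reductase gene cdc22 (2.31 ± 0.22). Cytosolic ribosomal protein genes had 9 of 72 (12.5%) and protein kinase genes 5 of 46 (10.9%), the highest being rpl2301 (2.84 ± 0.15) and psk1 (3.71 ± 0.19). Genes annotated as transmembrane transporters had 37 of 117 (31.6%), and transcription factor genes 8 of 45 (17.8%), led by dal81 (3.07 ± 0.05). No test of enrichment was made, and 61 of the 370 features belong to genes of the 22 named lists.

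**Figure D5:**
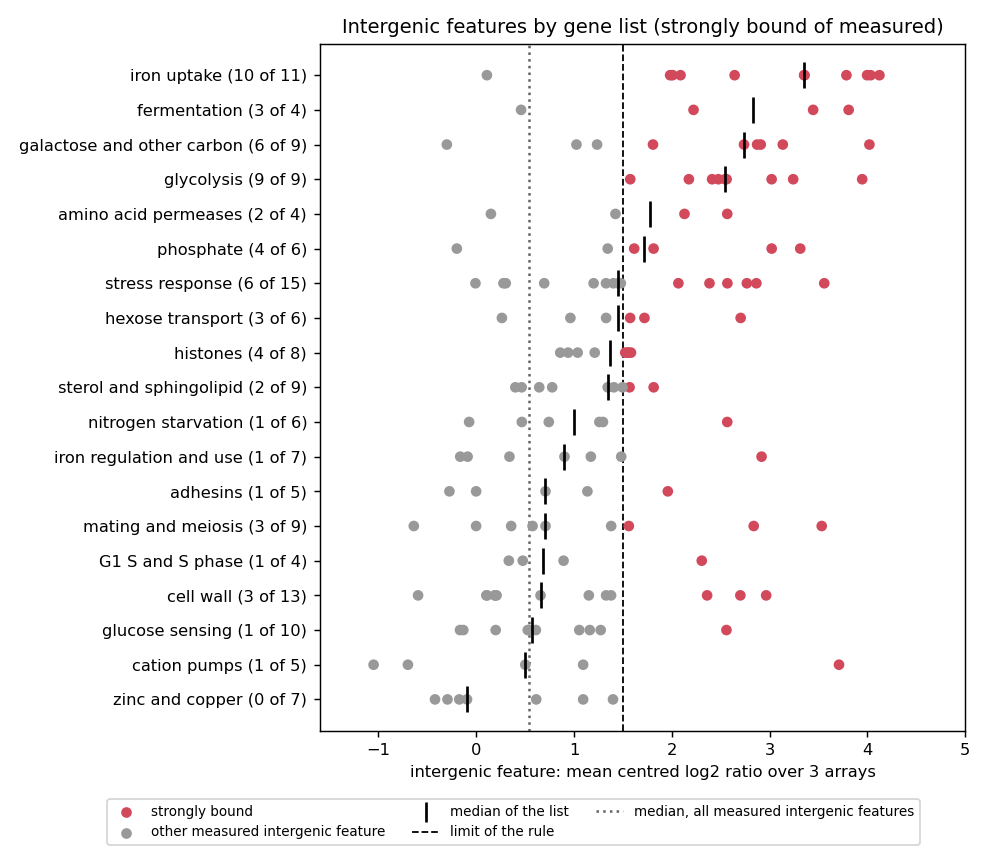
Mean centred log2 ratio over 3 arrays (x axis) of every measured intergenic feature in 19 gene lists with at least 4 measured features (y axis, ordered by median, with strongly bound of measured in brackets); red points are strongly bound, grey points are not, black ticks are list medians, and the lines mark the limit of 1.5 (dashed) and the median of all measured intergenic features, 0.54 (dotted). Iron uptake and glycolysis have nearly all points past the limit, and zinc and copper genes have none.

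Among the motifs searched, CCCCT differed most in share between strongly bound and other features in the windows around the gene start. There the GATA forms and CCAAT differed by under 5 percentage points. These shares were not tested. In windows of 250 bases before and 50 bases after the gene start, a GATA form was present in 66.7% of 342 windows of strongly bound features, in 65.4% of 1619 windows of other measured features and in 67.5% of 5112 windows of all protein-coding genes. These shares count windows with at least 1 form. CCAAT was present in 41.2%, 44.7% and 42.2%. TGACGT was present in 8.77% of strongly bound windows, 7.23% of the others and 5.91% of all, and in 16.7% of the 48 windows of features that averaged at least 3. For CCCCT the shares were 18.1%, 11.4% and 10.4%, and 22.8% for features that averaged at least 2. In the 500 bases before the start codon, a window added after the data were seen, the CCCCT difference was smaller. CCCCT was present there in 23.7% of strongly bound and 20.3% of other windows. In the same window a GATA form was present in 88.0% and 82.9%, and CCAAT in 56.7% and 62.2%. Around the gene start CCCCAC occurred in 5.26%, 4.32% and 3.23%, and TATAAA in 45%, 44.2% and 48.1%. A run of A of 10 bases on either strand occurred there in 4.39%, 6.86% and 6.63%. The median GC content of these windows was 35.0% for strongly bound features, 34.0% for the others and 33.0% for all. All motifs were searched on both strands, and matches of the overlapping GATA forms were counted once per window.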

How the data were processed

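Spot intensities of 3 arrays of Tup12-GFP chromatin were used. Per the labels, a ScanExpress scanner and TIGR Spotfinder gave the spot values; no source used here names versions or the array's genome build. The authors deposited intensity values per channel after subtraction of local background. Their deposited series matrix is on a log10 scale and, per the labels, was median-normalised in GeneSpring. It correlated with the log10 immunoprecipitate of the spots (r = 0.79, 0.73 and 0.70) more than with their ratio (r = 0.36, 0.26 and 0.35), with column medians of 0.02, 0.05 and 0.03, and scale and centring stay unknown.

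Here log2 of immunoprecipitate over input was taken for spots not flagged X in either channel and centred on the median of all intergenic and ORF spots of an array, and repeat spots were averaged (median difference of strongly bound features 0.14, 0.14 and 0.15). All features measured on 3 arrays were fitted with limma 3.58.1 in R 4.3.3 (lmFit and eBayes, mean against 0, Benjamini-Hochberg), a step tested on simulated data. The number of arrays limits the precision. Names were matched to RefSeq's ASM294v3 by locus tag, symbol or synonym, and 344 of 370 matched. The members and gene lists were chosen with earlier results of these data known. Genes named by rule were the highest 12, those next to the limit, the most and least variable, and the highest of each chromosome. The rule also named up to 4 highest and the lowest of each list, the 3 highest divergent pairs and the extreme ORFs. Other named genes, such as frp1, ctt1, pcl1 and grx4, were picked after their values were seen, and not all are marked so. The long-region examples and the runs were also picked that way. Alternatives were other centring, loess (span 0.3), a second background subtraction, flags, dim input, repeat-spot medians, other limits, and leaving out arrays.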

Additional observations from a re-analysis of the deposited data

Results flagged for a closer look

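Some intergenic features had no ratio on at least 1 array although the immunoprecipitate was accepted on all 3, because the input was rejected. There were 2274 such features. They took no part in comparisons that need a value on all 3 arrays, but entered the shares over all intergenic features of single arrays where they had a ratio. In 19 of them the immunoprecipitate intensity lay above the 95th percentile of accepted negative control spots (1956, 1852 and 2239 on replicates 1, 2 and 3) on all 3 arrays, and in 0 of them above the median of the strongly bound features on all 3. Of the 19, 17 had a ratio on 1 or 2 arrays, and in 10 of these every ratio reached 1.5. Examples picked after their values were seen are SPAC1F12.10, with ratios of 3.4 and 3.6 on replicates 2 and 3, pmc4, a Mediator subunit gene, with 3.07 and 2.45 on the same arrays, and the chaperone gene hsp90, with 1.88 and 2.76 on replicates 1 and 3. Groups of 3 arrays are too small for a test of single outlying arrays.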

How the results depend on the processing

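The number of strongly bound features was 370. It became 620 when arrays were centred on ORF spots, 598 after a second background subtraction (570 of them called by limma), 212 without dim input, and 672 and 183 with a limit of 1 and 2; limma called all 620 and all 212. With rejected spots kept at a floor it was 498, of which 438 were called and 130 were among the 370. Leaving out 1 array gave 383 to 454, all called. Of the 370 features highest in the authors' series matrix, 207 were among the 370 strongly bound. Features called higher over the whole table numbered 1208 and, in alternatives added after the data were seen, 1909 with ORF centring, 770 without dim input, and 958 to 1370 when 1 array was left out. The ORF median of member genes (0.27) was 0.41 with ORF centring, 0.39 with loess, -0.29 with rejected spots kept at a floor, and 0.0077 to 0.33 when 1 array was left out. The share with a divergent neighbour (63.5%) was 68.8% without dim input, 55.1% with rejected spots kept, and 62.2% to 63.8% without 1 array. The median on the array left out (2.02 over the 3 arrays) was 2.31 after the second subtraction, 1.49 with rejected spots kept, and 1.57 and 2.58 with a limit of 1 and 2. ORF centring raised all values by 0.35, 0.54 and 0.39 on replicates 1, 2 and 3, and keeping rejected spots lowered them by medians of -0.78, -0.69 and -0.94, which moves features across a fixed limit. The causes of the other changes were not tested. No paired analysis was possible because the arrays form a single group.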

Other observations

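Other groups of neighbouring function appeared among the strongly bound features. The following lists were put together after the values were seen, so their counts support nothing. In the uracil-responsive cluster of chromosome I all 5 measured features were strongly bound, and the intergenic median was 1.95. Its 5 ORF features were all called higher by limma, where 8.2% of all ORF features were. The ORF median was 2.28, higher than the median between the genes. The values were 3.63, 4.21 and 3.55 for tna1 and 2.79, 4.01 and 2.61 for urg2.

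In the pentose phosphate and gluconate pathways 4 of 5 features were strongly bound, among them zwf1, the first enzyme of the pathway (2.75, 4.12 and 3.19), and gnd1 (3.05, 3.39 and 2.70). The 5 ORF features of these genes had a median of -0.24. In nitrogen assimilation 6 of 7 were strongly bound, led by the glutamate dehydrogenase gene gdh1 (3.11 ± 0.14), the transcription factor gene dal81 (3.07 ± 0.05) and the arginase gene aru1 (3.03 ± 0.76), with the glutamine synthetase gene gln1 at 2.17 ± 0.19. Of 11 enzymes of the tricarboxylic acid and glyoxylate pathways 5 were strongly bound, and kgd1 averaged -0.66 ± 0.17.

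The ORF feature of psu1 gave 1.2, 0.88 and 4.89 on replicates 1, 2 and 3, so that its mean of 2.32 rests on replicate 3.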
